A study of Saccharomyces cerevisiae with 4 samples.

Results

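The MAP kinase phosphatases of budding yeast (Saccharomyces cerevisiae) were taken as 8 genes named by reading frame: PTP2, PTP3, MSG5, SDP1, PTC1, PTC2, PTC3 and PTC4. They are 8 of the 6207 reading frames in the deposited table. They were chosen by what they encode, not by a measured value, though with earlier results of these data known. All 8 had a value on at least 3 of the 4 arrays, and 7 had one on all 4. SDP1 had no value on array 4 and was therefore outside the test, which took the 4788 reading frames with a value on all 4 arrays.

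A MAP kinase is switched on when the kinase above it adds phosphate to a threonine and a tyrosine of its activation loop, and it is switched off when a phosphatase removes either one. Budding yeast uses enzymes of several classes for this. Ptp2 and Ptp3 are tyrosine phosphatases that act on Hog1, Fus3 and Slt2, with Ptp2 mainly nuclear and Ptp3 mainly cytoplasmic. Msg5 and Sdp1 are related dual-specificity phosphatases. Ptc1 to Ptc4 are type 2C serine and threonine phosphatases that have been tied to Hog1, the kinase of the high osmolarity pathway. In wild type yeast, cell wall damage activates Slt2, the kinase of the cell wall integrity pathway, and zymolyase also signals through Hog1. Both kinases are substrates of enzymes in this group. The arrays here are titled as an slt2 mutant, in which Slt2 may not work.

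The titles describe the yeast as an slt2 mutant, with 1 channel label against it, grown in YEPD, a rich glucose medium, at 24 °C. Each culture was split, and 1 part received zymolyase 100T, a preparation that digests cell wall glucan, at 5 units per ml, while the other grew on without it. RNA was collected after 3 h, and that of 2 cultures was hybridised to 4 arrays, each comparing treated with untreated RNA in Cy3 and Cy5, with the dyes swapped. Arrays 1 and 3 had treated RNA in Cy3, and arrays 2 and 4 had it in Cy5. By the titles, treated and untreated cultures share the slt2 mutation, and the labels do not name the allele. The source label of the treated channel on array 3 names the wild type, against that array's title and its other channel, so values without array 3 are also given. SLT2 (YHR030C) had a value on 0 arrays so the genotype was not checked.

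Across genes, deposited ratios had r from -0.60 to -0.29 between arrays whose dyes ran opposite ways, and 0.49 and 0.52 between arrays whose dyes ran the same way. The ratios of arrays 2 and 4 were therefore multiplied by -1. These turned ratios are on a log2 scale by assumption, since the base was not stated. The numerator was not stated either, so which part of the culture had more transcript cannot be said. The sides are named after a pair of called genes: HSP12, a small heat shock protein gene, at 2.63 ± 0.58 (SD, n = 4), and TIP1, a cell wall mannoprotein gene, at -1.17 ± 0.45. Positive values below lie on the HSP12 side, and a mean ± SD is over arrays, which mix 2 cultures and 2 dyes. With 4 arrays, precision is limited throughout.

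No change with zymolyase passed the test for any of the 7 tested phosphatase genes. With limma, 0 of 7 passed an adjusted p under 0.05, and 0 of 7 had an unadjusted p under 0.05. Over all 4788 genes 4.55% were called, 4.34% toward HSP12 and 0.209% toward TIP1. An unadjusted p under 0.05 was found for 551 of the 4788. At such shares, 0 of 7 does not set these genes apart. The 7 mean turned ratios ran from -0.25 for PTC1 to 0.29 for PTP2, or from 1.19-fold toward TIP1 to 1.22-fold toward HSP12. Their median size was 0.15, against 0.19 over all tested genes. The smallest mean size that was called anywhere in the table was 0.75, or 1.68-fold.

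The 95% intervals of all 7 genes stayed within a 2-fold change in either direction. The bound farthest from 0 was that of PTP2 on the HSP12 side, at 0.76 or 1.70-fold, followed by PTC4 at 0.75 or 1.68-fold. On the TIP1 side the farthest bound was that of PTC1, at -0.73 or 1.66-fold. With arrays 1 and 2 as 1 culture, limma gave every gene the same standard error of 0.24, which sets these intervals. It also sets the p-values of the 7 genes, which follow from mean size and not from a gene's own spread. Over 18 other settings, 3 of which could test SDP1, the farthest bound of any of the 8 genes was 1.98-fold, for PTP2 on arrays 3 and 4 alone, and 0 of 129 recomputed values passed the test. Not every setting could have changed this. The one that required a mean size of at least 1 could call none of the 7 genes. Arrays 1 with 2 and 3 with 4 alone repeated their main values.

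**Figure D1:**
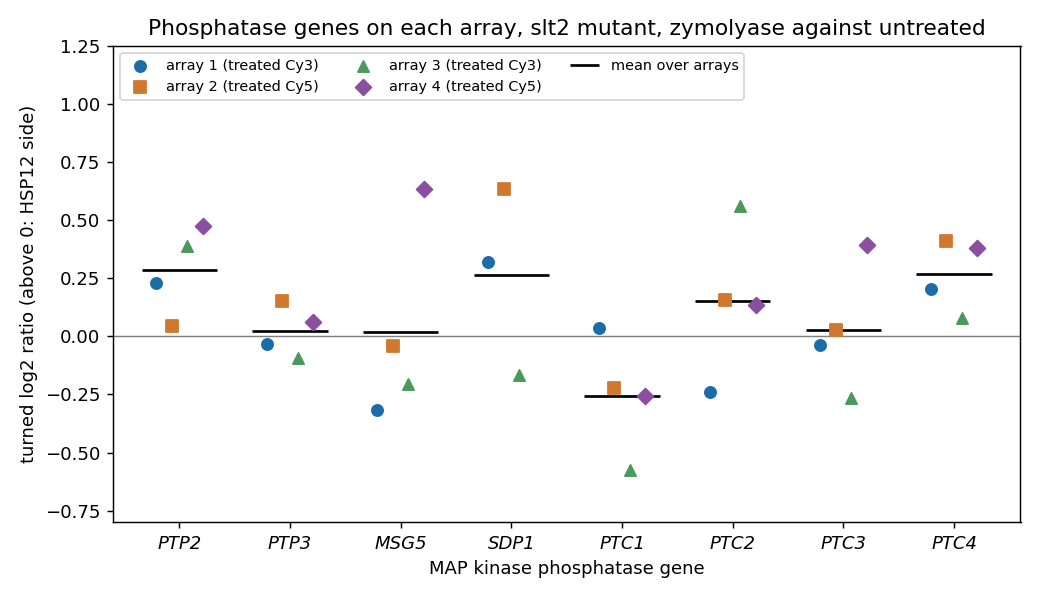
Turned log2 ratios of the 8 phosphatase genes (vertical axis, above 0 on the HSP12 side) on arrays 1 to 4, each array with its own symbol and the dye of the treated RNA in the key, and the mean over arrays as a black line. PTP2 and PTC4 lie above 0 on all 4 arrays, SDP1 has 3 points, and every point lies between -0.58 and 0.64.

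Among the tyrosine phosphatases, PTP2 lay on 1 side throughout and PTP3 stayed near 0. PTP2 (YOR208W), whose product removes the tyrosine phosphate from Hog1 and Slt2 in the nucleus, had turned ratios of 0.23, 0.045, 0.39 and 0.48 on arrays 1 to 4. All 4 lay on the HSP12 side, with array 2 close to 0. The mean was 0.29 ± 0.19 (SD, n = 4), or 1.22-fold, and the gene was not called (limma, adjusted p = 0.749). In size this mean stood at the 67.7th percentile of all tested genes. Without array 3 it was 0.25.

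PTP3 (YER075C), the mainly cytoplasmic enzyme, with a known part in keeping Fus3 of the mating pathway inactive, had -0.032, 0.15, -0.093 and 0.060 on arrays 1 to 4. Arrays 1 and 3 lay on the TIP1 side and arrays 2 and 4 on the HSP12 side, all close to 0. The mean was 0.021 ± 0.11 (SD, n = 4; limma, adjusted p = 0.986), and the SD stood at the 4.95th percentile of all tested genes. The 95% interval ran from -0.46 to 0.50.

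PTP2 exceeded PTP3 toward the HSP12 side on 3 of 4 arrays. The differences of PTP2 over PTP3 were 0.26, -0.11, 0.48 and 0.42 on arrays 1 to 4, with a mean of 0.26 ± 0.26 (SD, n = 4). This mean is as large as the spread between arrays. An exact sign-flip test over 4 arrays cannot give a two-sided p below 0.125, and over 2 cultures none below 0.5, so the difference was given no test.

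The dual-specificity phosphatase genes had the widest scatter among arrays. MSG5 (YNL053W), whose product acts on Fus3 and Slt2, had turned ratios of -0.32, -0.042, -0.20 and 0.64. Array 4 alone lay on the HSP12 side, and the other 3 lay on the TIP1 side. The mean was 0.018 ± 0.43 (SD, n = 4; limma, adjusted p = 0.989). It was -0.19 without array 4 and 0.092 without array 3, so that 1 array decided the side of this mean. The SD stood at the 79.4th percentile of all tested genes.

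SDP1 (YIL113W), encoding a phosphatase with a preference for Slt2, had 0.32, 0.63 and -0.17 on arrays 1 to 3. Arrays 1 and 2 lay on the HSP12 side and array 3, the array with the wild type label, on the TIP1 side. The mean was 0.26 ± 0.40 (SD, n = 3), 0.48 without array 3 and 0.077 without array 2, so that it rests largely on array 2. In a fit of all genes with at least 3 values, SDP1 was not called (limma, adjusted p = 0.471, 95% interval from -0.18 to 0.71). Unlike the main test, that fit took each array as a separate replicate. On arrays 1 and 2 alone, also as separate replicates, its adjusted p was 0.243, and these arrays may come from 1 culture.

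On the 3 arrays that hold both, MSG5 lay below SDP1 each time. The differences of MSG5 over SDP1 were -0.64, -0.67 and -0.036, with a mean of -0.45 ± 0.36 (SD, n = 3). On array 3 the genes were nearly equal. An exact sign-flip test over 3 arrays cannot give a two-sided p below 0.25.

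Of the type 2C genes, PTC4 lay on the HSP12 side on every array and PTC1 was the only tested member with a mean on the TIP1 side. The means of MSG5, PTP3 and PTC3, all near 0, moved to the TIP1 side with the trend of coding length taken out, and that of MSG5 also with arrays scaled to equal spread. PTC1 (YDL006W), whose product removes the threonine phosphate from Hog1 and reaches the kinase complex through the adaptor Nbp2, had 0.035, -0.22, -0.58 and -0.26 on arrays 1 to 4. Array 1 lay just above 0 and the others below. The mean was -0.25 ± 0.25 (SD, n = 4; limma, adjusted p = 0.793), or 1.19-fold toward the TIP1 side. Without array 3 it was -0.15. NBP2 (YDR162C), given here for its link to PTC1 after its values were seen, had a mean of -0.25 ± 0.52 and was not called either.

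PTC2 (YER089C) and PTC3 (YBL056W) encode closely related enzymes that act on Hog1 and on the checkpoint kinase Rad53. PTC2 had turned ratios of -0.24, 0.16, 0.56 and 0.13, and a mean of 0.15 ± 0.33 (SD, n = 4; limma, adjusted p = 0.890). Array 3 was highest, and without it the mean was 0.017. PTC3 had -0.037, 0.026, -0.26 and 0.39, and a mean of 0.029 ± 0.27 (SD, n = 4; limma, adjusted p = 0.982). Its arrays lay 2 on each side. The differences of PTC2 over PTC3 were -0.20, 0.13, 0.83 and -0.26, 2 on each side of 0, with a mean of 0.12 ± 0.50.

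PTC4 (YBR125C), encoding a cytoplasmic type 2C phosphatase known to lower Hog1 phosphorylation when overproduced, had 0.20, 0.41, 0.078 and 0.38 on arrays 1 to 4. All lay on the HSP12 side, with array 3 lowest. The mean was 0.27 ± 0.16 (SD, n = 4; limma, adjusted p = 0.772), and 0.33 without array 3. PTP2 and PTC4 are thus the 2 of 7 tested genes that lay on 1 side on all 4 arrays. Among all tested genes 30.3% did so.

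In order of the mean turned ratio, PTP2 (0.29) was followed by PTC4 (0.27), SDP1 (0.26, 3 arrays), PTC2 (0.15), PTC3 (0.029), PTP3 (0.021), MSG5 (0.018) and PTC1 (-0.25). All neighbours in this order differ by less than the larger of their SDs, so the order is a description only.

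**Figure D2:**
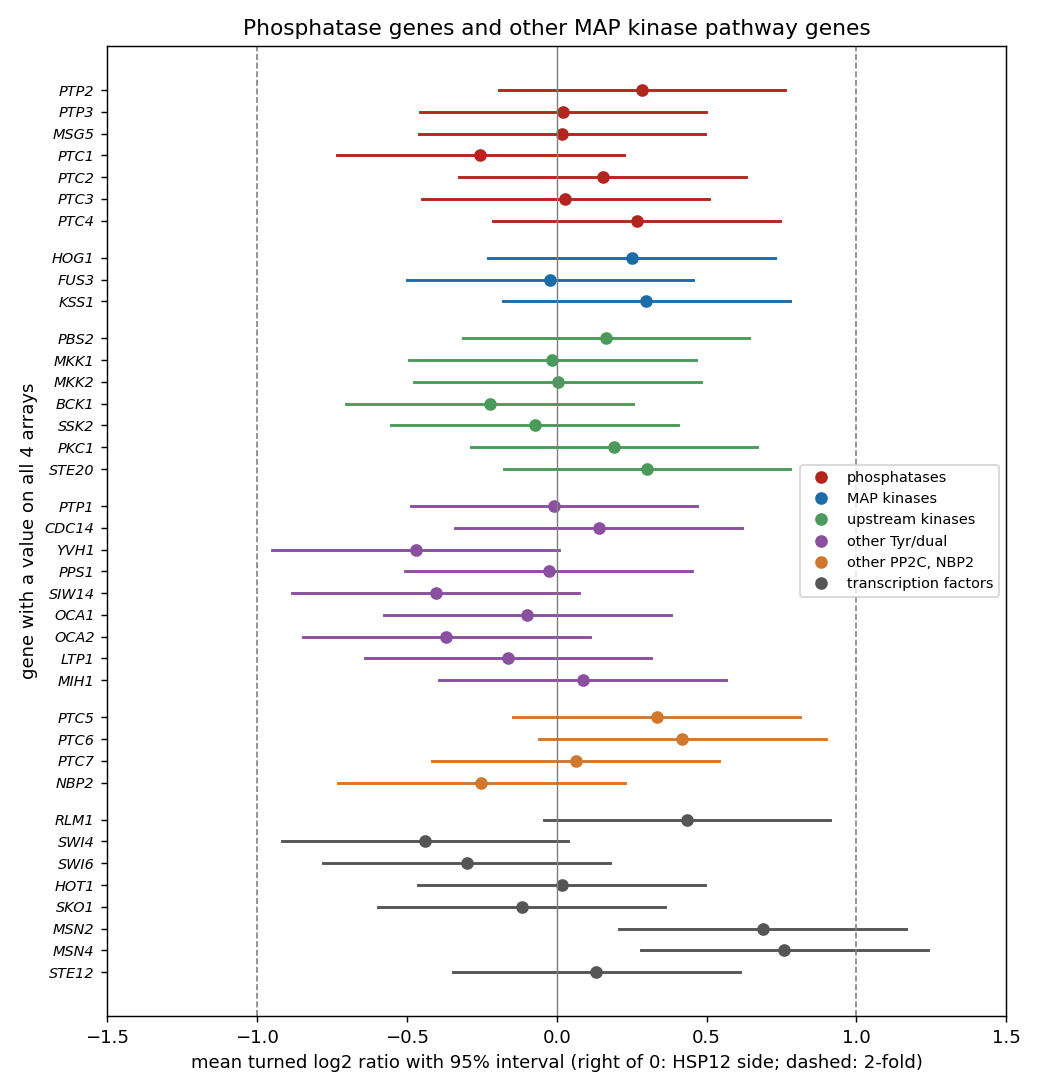
Mean turned log2 ratio (dot) and 95% interval from limma (line) for the 7 tested phosphatase genes and 31 tested genes of 5 lists of MAP kinase pathway genes, with dashed lines at a 2-fold change. All 7 phosphatase intervals cross 0 and end inside the dashed lines, while those of MSN2 and MSN4 lie right of 0.

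Most of the 7 genes lay on different sides over arrays 1 and 2 and over arrays 3 and 4. Over arrays 1 and 2 PTC2 had a mean of -0.042 and over arrays 3 and 4 a mean of 0.35. For MSG5 these were -0.18 and 0.22, for PTC3 -0.0059 and 0.064, and for PTP3 0.059 and -0.016. In all, 4 of 7 genes changed side between the pairs of arrays, as did 37.3% of all tested genes. PTP2 had 0.14 and 0.43, PTC1 -0.093 and -0.42, and PTC4 0.31 and 0.23, each pair on 1 side. Over all tested genes the turned ratios had r of 0.54 between arrays 1 and 2 and 0.60 between arrays 3 and 4. Between arrays 1 and 4 it was 0.29, and between arrays 2 and 3 it was 0.31. No label ties an array to its culture, so whether this split follows the cultures cannot be told.

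**Figure D3:**
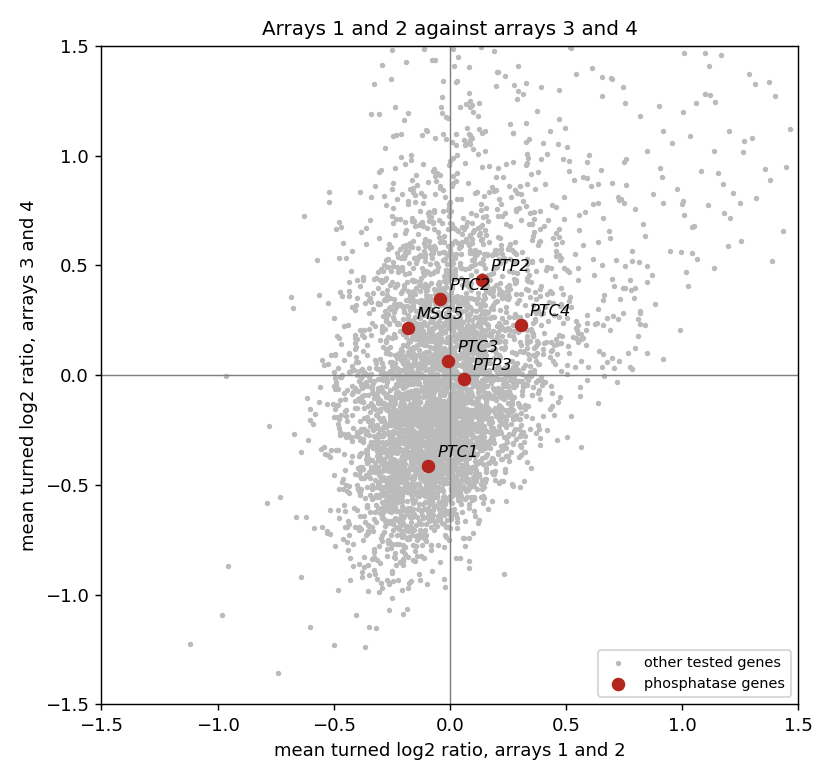
Mean turned log2 ratio over arrays 1 and 2 (horizontal) and over arrays 3 and 4 (vertical) for the 7 tested phosphatase genes (red, named) and all other tested genes (grey), of which 113 lie outside the axes. PTP2 and PTC4 lie at the upper right and PTC1 at the lower left, and PTC2, MSG5, PTC3 and PTP3 lie where the pairs of arrays have opposite signs.

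On arrays 3 and 4 longer genes lay more toward the HSP12 side. Spearman's rho between the turned ratio and the coding length in the RefSeq annotation R64 was 0.45 and 0.40 there over 4576 genes, and -0.013 and -0.18 on arrays 1 and 2. These genes share arrays and spots, and no p was attached. PTP3 and PTP2 are the longest of the 8, with 2787 and 2253 coding bases, and SDP1 and PTC1 the shortest, with 630 and 846. With this trend removed the mean of PTP2 was 0.11, that of PTP3 -0.18, that of PTC4 0.21 and that of PTC1 -0.24. None of the 7 was called there (limma, adjusted p from 0.294 for PTC1).

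For 3 of the 7 genes the dye component of the ratio was larger in size than the treatment mean. The dye component is the mean of the deposited ratios before any array is turned. A treatment effect cancels in it only where that effect is equal on all arrays. The dye component was -0.28 for MSG5, against a treatment mean of 0.018, and -0.18 for PTC3, against 0.029. The deposited ratios of MSG5 were uneven, at -0.32, 0.042, -0.20 and -0.64. For PTP3 the dye component was -0.084, against 0.021. PTP3 and PTC3 had deposited ratios below 0 on all 4 arrays, which were -0.032, -0.15, -0.093 and -0.060 for PTP3 and -0.037, -0.026, -0.26 and -0.39 for PTC3. Of all tested genes 12.1% had 1 sign on all 4 deposited ratios, and 35.3% had a dye component larger than the treatment mean. PTP2, PTC1 and PTC2 had dye components of at most 0.024 in size, and PTC4 one of -0.13.

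**Figure D4:**
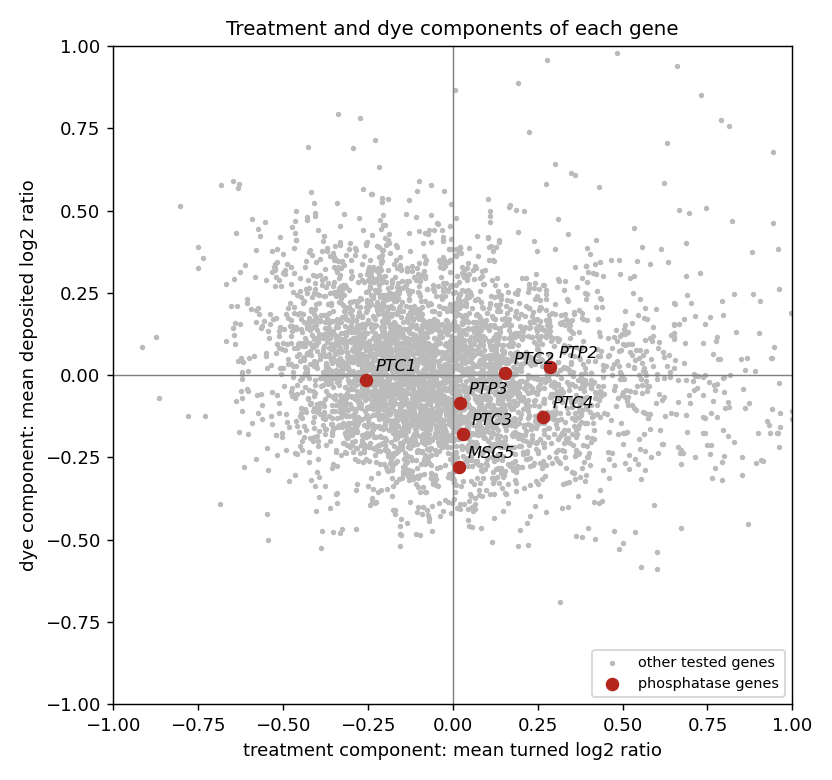
Treatment component (mean turned log2 ratio, horizontal) and dye component (mean deposited log2 ratio, vertical) of the 7 tested phosphatase genes (red, named) and all other tested genes (grey), of which 140 lie outside the axes. MSG5, PTC3 and PTP3 lie near 0 on the horizontal axis and below 0 on the vertical one, and PTP2, PTC2 and PTC1 lie close to 0 on the vertical axis.

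None of the tested kinases that these phosphatases act on passed the larger p of both pairings of arrays into cultures. Of 6 MAP kinase genes, 3 had a value on all 4 arrays and 0 of these were called, where 4.55% of all tested genes were. HOG1 (YLR113W) had turned ratios of 0.037, 0.27, -0.0096 and 0.71, with a mean of 0.25 ± 0.33 (SD, n = 4). KSS1 (YGR040W), the kinase of filamentous growth, had -0.068, 0.17, 0.40 and 0.70, with a mean of 0.30 ± 0.33. Both had 1 array below 0. SLT2 and its paralogue KDX1 had no value, and SMK1, a kinase of sporulation, had 2. The 10 kinases above the MAP kinases included 7 tested genes with 0 calls, the largest means being 0.30 for STE20 (YHL007C), an upstream kinase of the mating and osmotic pathways, and -0.22 for BCK1 (YJL095W), which acts above Slt2. With arrays 1 and 4 as 1 culture and 2 and 3 as the other, alone, KSS1 (limma, adjusted p = 0.0454) and STE20 (0.0462) were called. That fit called 1415 of all 4788 tested genes. The median standard error was 0.10 in that pairing, against 0.24 with 1 with 2 and 3 with 4. The median mean was 0.25 for the 3 MAP kinase genes and 0.0030 for the 7 upstream kinases, against -0.057 over all tested genes.

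Other protein phosphatases were likewise not called by the larger p of both pairings. Of 9 further genes of the tyrosine and dual-specificity class, 7 had a mean on the TIP1 side and 0 were called, with a median of -0.098. Over all tested genes 2753 of 4788 had a mean on the TIP1 side and 4.55% were called. YVH1 (YIR026C), a dual-specificity phosphatase needed for ribosome assembly, had -0.49, -0.38, -0.47 and -0.55, with a mean of -0.47 ± 0.068 (SD, n = 4; limma, adjusted p = 0.451). Its 4 arrays lay close together on 1 side, and beyond the means of the 7 tested MAP kinase phosphatase genes. SIW14 (YNL032W), an inositol pyrophosphate phosphatase, had a mean of -0.40 ± 0.48. The list of the remaining type 2C genes with NBP2 had 0 of 4 called, and its largest means were 0.42 ± 0.61 for PTC6 (YCR079W) and 0.33 ± 0.28 for PTC5 (YOR090C), both mitochondrial type 2C phosphatases. Whether such genes are called depends on the pairing, which is unknown. The correlation that limma estimated between arrays of 1 culture was -0.67 for 1 with 4 and 2 with 3. It was 0.12 for 1 with 2 and 3 with 4. With arrays 1 and 4 as 1 culture and 2 and 3 as the other, alone, limma called YVH1 (adjusted p = 0.00681), SIW14 (0.0148), PTC6 (0.0118), PTC5 (0.0380) and OCA2 (0.0202, named after its values were seen). Of all 4788 tested genes 1415 were called in that fit.

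Among 8 transcription factors that act below MAP kinases 1 was called, against 4.55% of all tested genes. MSN4 (YKL062W), an activator of general stress genes, had turned ratios of 0.50, 0.44, 0.79 and 1.31 on arrays 1 to 4. All lay on the HSP12 side, and the mean was 0.76 ± 0.40 (SD, n = 4), or 1.69-fold (limma, adjusted p = 0.0423). The call was lost without array 1 (adjusted p = 0.231), array 2 (0.114) or array 4 (0.189), with a random culture block (0.0539), and after the coding length trend was taken out (0.169). On arrays 1 and 2 alone its mean was 0.47 (adjusted p = 0.239), and on arrays 3 and 4 alone 1.05 (0.00393). Fits on a pair alone took each array as a separate replicate, though the pair may come from 1 culture. Its paralogue MSN2 (YMR037C), named after its values were seen, had a mean of 0.69 ± 0.49 and was not called (adjusted p = 0.0942). The other 6 were not called, among them RLM1 (YPL089C), the factor that Slt2 activates, at 0.43 ± 0.51, also named after its values were seen. With arrays 1 and 4 as 1 culture and 2 and 3 as the other, alone, limma also called MSN2 (adjusted p = 0.000809), RLM1 (0.0127) and SWI4 (0.0126), the latter named after its values were seen. That fit called 1415 of all 4788 tested genes. MSN2 (0.00214) and RLM1 (0.0304) were called on arrays 3 and 4 alone, and MSN2 with robust moderation (0.0277). These settings called 428 of 4822 and 239 of 4788 genes.

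The 3 genes most like PTP2, the tested member with the largest mean size, were VPS35, PAU2 and ATP1. Likeness was the root-mean-square difference over the 4 turned ratios, which was 0.066 for VPS35 (YJL154C) and 0.067 for PAU2 (YEL049W) and ATP1 (YBL099W). None of the 3 was called. PAU2 belongs to a family of near-identical genes that a spot may not tell apart. In all, 10 of 4787 genes came within 0.1 of PTP2. Among the members, MSG5 and PTC3 were nearest to each other at 0.19, and PTP2 and PTC4 were 0.25 apart. PTC1 and PTC2 were farthest apart, at 0.64.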

How the data were processed

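Per the labels' protocols, dyes were built in directly as Cy3-dUTP and Cy5-dUTP while RNA was copied. The authors deposited log ratios between both channels of each array, taken here as log2 by their size. The numerator, background correction, normalization and spot filter are not stated there, and no signal over background was used here. Column medians as deposited were -0.018, 0.046, -0.10 and 0.025 on arrays 1 to 4, and scale, centring and direction stay unknown.

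Of 6209 rows, 2 control spots were left out. Names came from the RefSeq gene table of assembly R64, which matched 5675 of 6207 reading frames, 21 by a synonym. Arrays 2 and 4 were turned. Arrays 1 to 4 held 5402, 5434, 5201 and 4931 values. limma (version 3.58.1, R 4.3.3) was fitted to all 4788 genes with 4 values, on means per culture. No label links an array to its culture, so both pairings (1 with 2 and 3 with 4, or 1 with 4 and 2 with 3) were fitted. Each gene took the larger p and the outer interval bounds, and p-values were adjusted by Benjamini-Hochberg over all genes. Nothing says how far arrays of 1 culture are technical repeats, so p-values measure the spread between these arrays. With arrays 1 and 2 as 1 culture, that spread was pooled over all genes into 1 standard error of 0.24. A p-value from that pairing depends on the mean size alone.

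Every member was named. From each of 5 lists of pathway genes, the called genes were named, or else the 2 tested genes with the largest mean size. The members and lists were chosen with earlier results of these data known. Every sample column was used. The fit was tried on simulated arrays drawn independently, without cultures or a length trend, so that trial cannot check the pairings. The closing section gives the effect of 18 other settings.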

Additional observations from a re-analysis of the deposited data

Results flagged for a closer look

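FUS3 (YBL016W), the MAP kinase of the mating pathway and a substrate of Ptp3 and Msg5, had a turned ratio of -0.33 on array 1, apart from 0.10, 0.072 and 0.067 on arrays 2 to 4. The gap to the nearest array was 0.915 of the whole range, above Dixon's critical value for 4 samples. This was 1 of 43 genes examined, where chance alone gives about 1 in 20. None of the 7 tested phosphatase genes had such an array, and SDP1, with 3 values, was not examined.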

How the results depend on the processing

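Of the 7 tested phosphatase genes 0 were called under each of 18 other settings, nor was SDP1 in the 3 settings that could test it. The required size of at least 1 could call none of the 7. Arrays paired as 1 with 2 and 3 with 4 alone repeated their main values. Arrays paired as 1 with 4 and 2 with 3 alone came nearest, with adjusted p of 0.0581 for PTP2, 0.0678 for PTC4 and 0.103 for PTC1. In that pairing 1415 of 4788 genes were called in all and 11 of 31 pathway genes, against 218 and 1 in the main fit. Its arrays of 1 culture had an estimated correlation of -0.67, and its median standard error was 0.10. With 1 with 2 and 3 with 4 these were 0.12 and 0.24. The all-gene count was 136 with a size of at least 1 required, 71 with the length trend removed, 428 on arrays 3 and 4 alone, and 80 to 203 without 1 array, 80 of them without array 1, 113 without array 2 and 133 without array 4. The pathway count was 0 with a random culture block, with the size minimum, with the length trend removed and on arrays 1 and 2 alone, 2 with robust moderation, 3 on arrays 3 and 4 alone, and 0 to 1 without 1 array. PTP2, SDP1, PTC1 and PTC4 kept their side in all settings that gave a value. For PTP2 and PTC4, on 1 side on all 4 arrays, leaving out arrays could not have changed it. The settings for SDP1 repeated its mean of 0.26 or left out array 3, its only array on the TIP1 side. The mean of PTP3 changed side with the length trend removed (-0.18), on arrays 3 and 4 alone (-0.016), and without array 2 (range without 1 array -0.022 to 0.060). MSG5 changed side with equal median absolute deviations (-0.064), with the length trend removed (-0.086), on arrays 1 and 2 alone (-0.18), and without array 4 (-0.19 to 0.13). PTC2 did so on arrays 1 and 2 alone (-0.042), and PTC3 there (-0.0059), with the length trend removed (-0.066) and without array 4 (-0.092 to 0.13). The causes were not tested beyond what each setting does. Where an array was left out, the lone array of a culture was assumed to vary like a culture mean. Fits on arrays 1 and 2 alone or 3 and 4 alone took arrays as separate replicates, and each pair may be 1 culture. Each ratio already sets treated against untreated RNA on 1 array.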

Other observations

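The genes beside the 8 phosphatase genes in the RefSeq order were examined after the results above were known. None of the 16 neighbours overlaps a phosphatase gene. Of these 12 had a value on all 4 arrays, and 0 were called with limma, against 4.55% of all tested genes. TPS1 (YBR126C), the trehalose phosphate synthase gene next to PTC4, had turned ratios of 0.81, 0.87 and 1.15 on arrays 1, 2 and 4 and no value on array 3, so it was not tested. Its mean of 0.95 ± 0.18 (SD, n = 3) compares with 0.20, 0.41 and 0.38 for PTC4 on the same arrays.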
